A study of Homo sapiens with 12 samples.

Results

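The H/ACA box small nucleolar RNAs (snoRNAs) were taken as the genes whose symbol begins with SNORA, which gave 105 genes of 23617 in the expression table. All 12 libraries were made from MOLT4, an established human line of T-cell acute lymphoblastic leukemia, and each of the 4 groups had 3 libraries. One group received the vehicle alone at 0.1% DMSO, and the others received 250 nM of THAL-SNS-032, SNS-032 or NVP-2, in every case over 6 h. SNS-032 inhibits CDK9 and other cyclin-dependent kinases, THAL-SNS-032 joins SNS-032 by a linker to a thalidomide-type ligand of the ubiquitin ligase receptor cereblon, and NVP-2 inhibits CDK9. RNA spike-ins (ERCC) went in when the cells were lysed, polyadenylated RNA was selected, and libraries kept the strand. Values are FPKM, fragment counts scaled to transcript length, as the authors deposited them. Whether they are scaled to library size or to the spike-ins is not given in the sources used here. Setting the ERCC medians of the libraries equal moved the median log2 difference of all genes from DMSO little. It went from -1.92 to -1.95 with SNS-032, from -1.90 to -1.96 with THAL-SNS-032 and from -2.54 to -2.62 with NVP-2. Of the 105 snoRNA genes, 83 passed a mean of 1 FPKM over the 12 libraries and were tested, and 22 did not.

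H/ACA snoRNAs fold into a pair of hairpins, joined by a hinge that holds the H box and ended by a tail that holds the ACA box. Each acts as a guide: its hairpin loops pair with a target, mostly ribosomal RNA, and the synthase dyskerin then turns the selected uridine into pseudouridine. In human cells most are cut out of introns of host genes, many of which encode ribosomal proteins, translation factors or non-coding host transcripts (SNHG genes), and the mature RNA has no poly(A) tail. CDK9 is the kinase of P-TEFb, which releases paused RNA polymerase II, the enzyme that transcribes these hosts.

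The sequences of 8 members are shown because the results turn on them: SNORA70, SNORA10, SNORA61 and SNORA8 were the most abundant in the mean over all libraries, SNORA24 and SNORA63 differed between SNS-032 and THAL-SNS-032, SNORA76 was higher with all 3 compounds, and SNORA12 was higher with NVP-2. They are the transcript sequences of GENCODE release 29 on GRCh38, 5′ to 3′ on the strand of the gene. Capitals mark every match to the H box motif ANANNA in the central stretch (35% to 65% of the length) and the ACA within the last 8 bases.
SNORA70: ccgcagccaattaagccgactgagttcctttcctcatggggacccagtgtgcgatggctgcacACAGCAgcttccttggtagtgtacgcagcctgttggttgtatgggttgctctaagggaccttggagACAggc
SNORA10: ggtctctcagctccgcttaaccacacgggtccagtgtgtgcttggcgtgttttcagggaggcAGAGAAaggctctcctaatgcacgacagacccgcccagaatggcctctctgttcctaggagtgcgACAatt
SNORA61: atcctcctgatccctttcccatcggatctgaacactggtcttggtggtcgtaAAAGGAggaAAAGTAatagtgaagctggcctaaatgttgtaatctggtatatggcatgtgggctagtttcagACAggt
SNORA8: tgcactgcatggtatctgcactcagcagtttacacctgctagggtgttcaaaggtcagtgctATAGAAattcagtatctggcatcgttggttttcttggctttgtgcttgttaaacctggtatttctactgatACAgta
SNORA24: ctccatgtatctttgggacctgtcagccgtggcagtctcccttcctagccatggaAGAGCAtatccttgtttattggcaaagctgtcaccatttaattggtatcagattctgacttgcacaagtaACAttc
SNORA63: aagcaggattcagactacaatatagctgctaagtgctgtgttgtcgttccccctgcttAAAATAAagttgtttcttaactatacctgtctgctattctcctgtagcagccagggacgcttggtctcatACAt
SNORA76: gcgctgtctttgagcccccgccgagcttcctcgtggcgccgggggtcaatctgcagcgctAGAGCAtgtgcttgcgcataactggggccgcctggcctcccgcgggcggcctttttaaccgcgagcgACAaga
SNORA12: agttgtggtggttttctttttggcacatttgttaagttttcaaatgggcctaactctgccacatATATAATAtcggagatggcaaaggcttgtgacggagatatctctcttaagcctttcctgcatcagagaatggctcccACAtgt

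A search on the transcript strand only found the central ANANNA in 99 of the 105 members (94.3%) and the ACA near the 3′ end in 96 (91.4%), and in 77 (73.3%) exactly 3 bases followed the ACA. Both were present in 91 members (86.7%). The same search in 288 C/D box snoRNA transcripts (SNORD) found the central motif in 151 (52.4%), the ACA in 14 (4.86%) and both in 2 (0.694%). The central motif is thus frequent in both classes, and the ACA in its place near the end is the letter match that separates them. The members were short, between 121 and 272 bases with a median of 134, and 93 lay between 120 and 140 bases. FPKM divides by length, so for such short transcripts a few fragments give a large value, and how the effective length was set is not given in the sources used here.

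The cell line showed its T-lineage markers in DMSO: CD3E had a mean of 895 FPKM, CD3D 2045, CD7 234 and TAL1 29.9. Markers of monocytes and red cells were low, with CD14 at 0.413 and HBB at 0.306. The table holds no counts, so read depth and counting error are unknown. Whether replicates were grown as separate cultures is not in the labels, and the p-values therefore reflect only how far the deposited libraries of a group lay apart. Differences are given as mean log2(FPKM + 1), which understates changes of low values, and a gene was called where limma's Benjamini-Hochberg adjusted p over all 11379 tested genes was under 0.05. In a bulk library, fewer cells and less of an RNA per cell cannot be told apart.

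The values of the members fell into 2 kinds. Of 1260 values, 724 (57.5%) lay at a floor under 0.3 FPKM, where the table gives a small number in place of 0, and only 1 value lay between 0.3 and 0.9. At the floor in all 12 libraries were 15 members, of which 11 carried a single value per library that 4199 gene names share. Above the floor in every library were 7 members: SNORA70, SNORA10, SNORA8, SNORA40, SNORA24, SNORA33 and SNORA63. A further 12 members were above it in 1 library only, and 14 of the 83 that passed the mean of 1 FPKM did so with 1 or 2 libraries above the floor. Around that threshold, SNORA80, SNORA7B and SNORA70B had means of 0.895, 0.950 and 0.953, and SNORA54, SNORA74A and SNORA28 had means of 1.17, 1.5 and 1.53.

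The number of members above the floor was 45, 52 and 49 in the DMSO libraries, 58, 62 and 58 with SNS-032, 31, 26 and 27 with THAL-SNS-032 and 40, 48 and 40 with NVP-2. SNS-032 libraries thus showed the most members and THAL-SNS-032 libraries the fewest, with no overlap of either with DMSO. Counted over all 3 libraries of a group, 37 members were above the floor in DMSO, 40 in SNS-032, 24 in NVP-2 and 14 in THAL-SNS-032. Levels followed another order: the median value above the floor was 91.1, 81.2 and 74.8 FPKM in DMSO libraries, 12.8, 26.5 and 27.0 with SNS-032, 16.3, 12 and 15.4 with THAL-SNS-032 and 7.79, 7.39 and 5.81 with NVP-2. Summed over the 105 members, the level was 8873, 10136 and 9144 FPKM in DMSO libraries, 1344, 2820 and 2329 with SNS-032, 794, 832 and 810 with THAL-SNS-032 and 472, 615 and 485 with NVP-2. Every compound library lay far below every DMSO library in this sum, and SNS-032 replicate 1 was the lowest of its group.

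**Figure D1:**
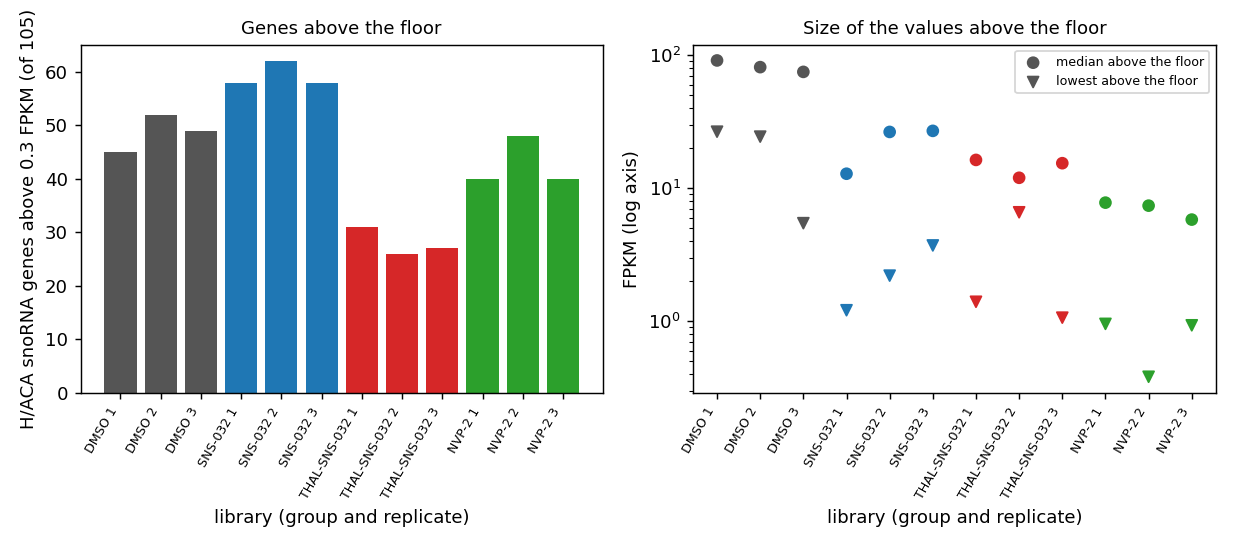
Left, bars give the number of the 105 H/ACA snoRNA genes above 0.3 FPKM in each of the 12 libraries; right, circles give the median and triangles the lowest FPKM above that floor, on a log axis. SNS-032 libraries hold 58 to 62 members above the floor and DMSO libraries 45 to 52, while the lowest value above the floor is 26.6 in DMSO replicate 1 and 1.21 in SNS-032 replicate 1.

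The smallest value that rose above the floor also differed between groups. It was 26.6 and 24.4 FPKM in DMSO replicates 1 and 2 and 5.46 in replicate 3 (SNORA74A, which is longer than most; 27.1 among members of 120 to 140 bases). It was 1.21, 2.20 and 3.72 with SNS-032, 1.40, 6.59 and 1.07 with THAL-SNS-032 and 0.957, 0.383 and 0.933 with NVP-2. Values between the floor and 24.4 FPKM, common in compound libraries, were thus absent from DMSO replicates 1 and 2. For this reason the counts of called members in each comparison are also given with every value under 26.6 FPKM, the highest of these lowest values, raised to 26.6. This common level was an alternative chosen after seeing the data, and it left 66 members to test. A group wholly under it has no spread left, so small differences can pass. SNORA60 with SNS-032, for example, passed as lower at -0.061 (SE 0.024, adjusted p = 0.0337, limma). A member above the level in DMSO and under it with a compound can only be lower, so its direction is fixed by construction. Above 26.6 FPKM in all 3 libraries were 34 members in DMSO, 13 in SNS-032, 5 in THAL-SNS-032 and 2 in NVP-2.

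**Figure D2:**
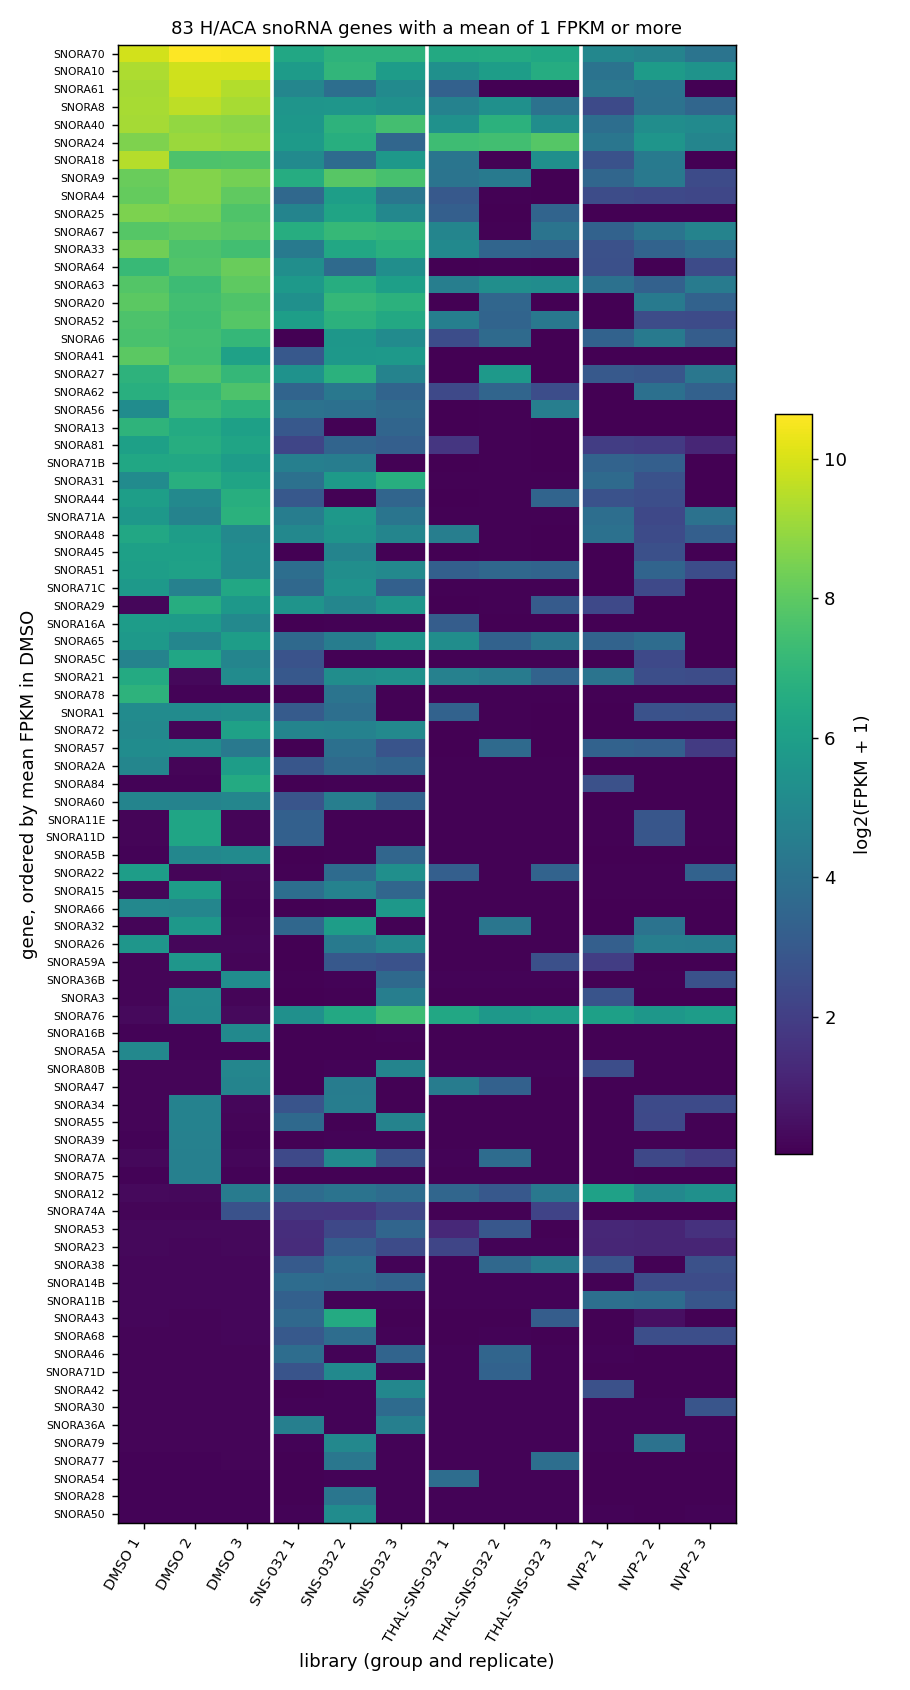
Colour gives log2(FPKM + 1) of the 83 tested H/ACA snoRNA genes (rows, ordered by their DMSO mean) in the 12 libraries (columns, 3 per group, white lines between groups). The members highest in DMSO are dimmer in all compound libraries, THAL-SNS-032 columns hold the most dark cells, SNORA76 stands out as brighter with all 3 compounds, and SNORA12 with NVP-2.

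The comparison with SNS-032 asked which snoRNA genes differ from the vehicle after 6 h of the inhibitor. Of the 83 tested members, 28 were lower, 10 were higher and 45 did not pass, with a median difference of -0.99. Among all 11379 genes tested, 94.6% were lower, 1.54% were higher and the median was -1.92. Members at the floor in DMSO could not fall. Of the 37 members above the floor in all DMSO libraries, a choice made on the DMSO values, 28 were lower for SNS-032, 37 for NVP-2 and 36 for THAL-SNS-032. Groups did not overlap for 27 of the 28 falls, as for 99.5% of the genes called lower (94.1% of all genes), and 19 of the 28 had every library of both groups above the floor. With each library centred on its own median, the split turned to 26 higher and 8 lower, and the median of all genes moved from -1.92 to 0.25, with 52.6% of genes higher and 31.1% lower. Centring moves members at the floor in both groups upward by its construction. At the common level of 26.6 FPKM, 33 of 66 members were lower and 1 was higher, against 89.9% and 0.432% of the 6252 genes tested there.

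With THAL-SNS-032, 41 members were lower, 3 were higher and 39 did not pass, with a median difference of -2.18. Of all genes, 94.8% were lower and 1.37% higher, and their median was -1.90, which centring moved to 0.36. After centring, 17 members were higher and 27 lower, against 57.2% and 29.2% of all genes. The 17 include SNORA14B (2.18) and SNORA11B (2.20), which were at the floor in every DMSO and THAL-SNS-032 library. Of the 41 falls, 40 had groups that did not overlap, as had 99.8% of the genes called lower (94.6% of all genes), but only 10 had both groups above the floor throughout, and in 14 all 3 THAL-SNS-032 libraries were at the floor. The common level left 37 falls and 1 rise, where 90.3% of genes were lower and 0.208% higher. Without SNS-032 replicate 1, which enters the pooled spread, the 3 rises became 1.

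With NVP-2, 42 members were lower, 4 were higher and 37 did not pass, with a median difference of -2.31. Of all genes, 97.1% were lower and 0.448% higher, and their median of -2.54 moved to 0.42 with centring, under which 21 members were higher and 19 lower (59.7% and 28.1% of all genes). Of the 42 falls, 41 had groups that did not overlap, as had 99.9% of the genes called lower (97.0% of all genes), 16 had both groups above the floor throughout, and in 10 all NVP-2 libraries were at the floor. The common level left 38 falls and 2 rises, against 90.8% and 0.192% of genes. The 3 comparisons share the DMSO libraries: 28 members were lower in all 3 and 42 in at least 1, where 93.4% and 97.3% of all genes were. Higher in all 3 were 2 members (SNORA12 and SNORA76), and 12 were higher in at least 1, against 0.220% and 2.19% of all genes.

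The 7 members above the floor in every library have no library at the floor. All 7 passed as lower in each of the 3 comparisons with DMSO on the deposited scale, as did 93.4% of all genes. After centring on library medians, 13 of the 21 differences still passed as lower, where 28.1% to 31.1% of all genes did per comparison. The other 8 no longer passed as lower. Of these 8, 3 turned positive: SNORA24 with THAL-SNS-032 (0.95) and SNORA33 and SNORA63 with SNS-032 (0.20 and 0.62). The other 5 stayed negative: SNORA24 with SNS-032 (-1.33, adjusted p = 0.0702, limma) and NVP-2 (-1.01, 0.152), SNORA40 with SNS-032 (-0.14, 0.778) and THAL-SNS-032 (-0.90, 0.0725), and SNORA63 with THAL-SNS-032 (-0.44, 0.169).

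SNORA70 lies within RPL10, which encodes a protein of the large ribosomal subunit, at chrX:154400281-154400415 on the plus strand of GRCh38. It measured 952, 1591 and 1523 FPKM in DMSO libraries, 82.7, 118 and 119 with SNS-032, 89.0, 91.5 and 79.7 with THAL-SNS-032 and 29.5, 26.5 and 16.3 with NVP-2. DMSO stood above all compound libraries, SNS-032 and THAL-SNS-032 overlapped, and NVP-2 lay below both. The differences from DMSO were -3.64 for SNS-032, -3.92 for THAL-SNS-032 and -5.76 for NVP-2, each with an SE of 0.25 (adjusted p = 2.12e-09, 9.05e-10 and 1.26e-11, limma). In ratios of means, these were 12.7-, 15.6- and 56.3-fold lower.

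SNORA10 lies within RPS2, a small-subunit ribosomal protein gene, at chr16:1962334-1962466 on the minus strand. Its 3 DMSO libraries gave 647, 937 and 939 FPKM, against 57.6, 128 and 59.2 with SNS-032, 40.2, 59.5 and 95.5 with THAL-SNS-032 and 16.0, 57.0 and 43.5 with NVP-2. The compound groups overlapped in part but none reached DMSO, and the differences were -3.43, -3.74 and -4.56 (SE 0.43; adjusted p = 1.58e-06, 6.30e-07 and 4.47e-08, limma).

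SNORA8 and SNORA40 share a host, TAF1D, a subunit of the selectivity factor of RNA polymerase I, and lie at chr11:93732361-93732499 and chr11:93735111-93735236 on the minus strand. SNORA8 gave 616, 773 and 611 FPKM in DMSO libraries, 46.5, 47.6 and 39.7 with SNS-032, 26, 40.1 and 15.4 with THAL-SNS-032 and 4.33, 15.4 and 10.7 with NVP-2. Its differences of -3.87, -4.66 and -6.04 (SE 0.36; adjusted p = 5.80e-08, 7.39e-09 and 2.30e-10, limma) were the largest falls among these 7 members in all 3 comparisons. SNORA40 gave 597, 480 and 439 FPKM in DMSO libraries, 48.8, 118 and 175 with SNS-032, 40.9, 113 and 36.4 with THAL-SNS-032 and 13.5, 36.2 and 33.3 with NVP-2. It fell by less, at -2.31, -3.16 and -4.24 (SE 0.48; adjusted p = 0.00029, 1.39e-05 and 4.08e-07, limma), and its SNS-032 libraries ranged from 48.8 to 175.

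SNORA24 lies within SNHG8, a non-coding snoRNA host, at chr4:118279190-118279320 on the plus strand. It measured 382, 521 and 487 FPKM in DMSO libraries, 55.3, 101 and 10.7 with SNS-032, 164, 170 and 227 with THAL-SNS-032 and 17.3, 46.2 and 28.3 with NVP-2. THAL-SNS-032 kept SNORA24 above every SNS-032 and NVP-2 library and below every DMSO library. The differences from DMSO were -3.50, -1.31 and -3.97 (SE 0.56; adjusted p = 2.36e-05, 0.0366 and 5.39e-06, limma). The THAL-SNS-032 call was lost without DMSO replicate 2 or 3 (adjusted p = 0.0719 and 0.0640), SNS-032 replicate 1 (0.0588) or THAL-SNS-032 replicate 1 or 2 (0.0781 and 0.0738). That call was also lost without the filter on low values (adjusted p = 0.127, limma).

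SNORA33 lies in an intron of RPS12, another small-subunit protein gene, at chr6:132817219-132817348 on the plus strand. It gave 327, 201 and 171 FPKM in DMSO libraries, 19.6, 83.2 and 109 with SNS-032, 32.5, 10.2 and 9.67 with THAL-SNS-032 and 5.42, 9.66 and 13.5 with NVP-2. Its differences were -1.97, -3.82 and -4.50 (SE 0.56; adjusted p = 0.00344, 8.96e-06 and 1.20e-06, limma), and THAL-SNS-032 overlapped with NVP-2 and, through replicate 1 of each, with SNS-032. SNORA63 lies within EIF4A2, a helicase of translation initiation, at chr3:186787300-186787431 on the plus strand. It gave 220, 156 and 256 FPKM in DMSO libraries, 53.8, 98.3 and 64.2 with SNS-032, 22.6, 37.2 and 35.6 with THAL-SNS-032 and 14.9, 8.94 and 20.6 with NVP-2. These 4 groups did not overlap in the order DMSO, SNS-032, THAL-SNS-032, NVP-2, and the differences from DMSO were -1.55, -2.69 and -3.79 (SE 0.30; adjusted p = 0.000164, 5.21e-07 and 6.63e-09, limma).

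**Figure D3:**
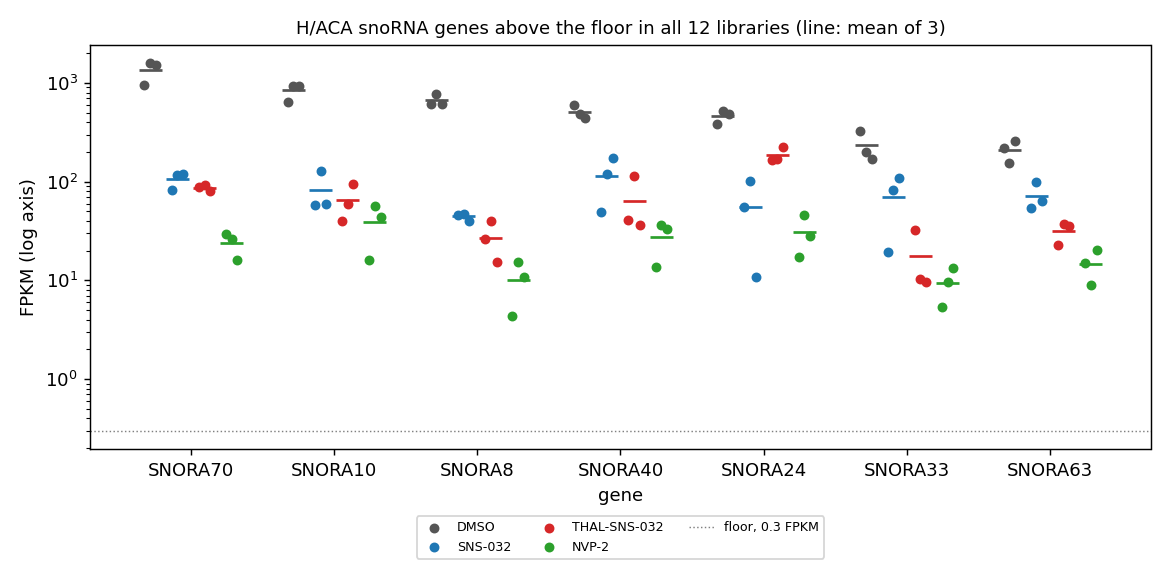
Points give FPKM per library (log axis) of the 7 H/ACA snoRNA genes above the floor in all 12 libraries, coloured by group, with a line at the mean of 3 and a dotted line at the 0.3 FPKM floor. For each gene all DMSO points lie above all compound points, SNORA24 is higher with THAL-SNS-032 (164 to 227) than with SNS-032 (10.7 to 101), and SNORA70 and SNORA63 are lowest with NVP-2.

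Other abundant members were lost from some compound libraries altogether. SNORA61, within the non-coding host SNHG12 at chr1:28579764-28579893 on the minus strand, gave 596, 903 and 689 FPKM in DMSO libraries, 28.9, 13.5 and 33.2 with SNS-032, 9.11 and the floor in the other THAL-SNS-032 libraries, and 17.7, 15.9 and the floor with NVP-2. Its differences of -4.87, -8.33 and -6.71 (SE 0.96) passed in all 3 comparisons (adjusted p = 0.000178, 6.85e-07 and 6.15e-06, limma). Where libraries are at the floor, the size of a difference depends on the pseudocount, so only the absence of overlap is read from it. SNORA16A, a second snoRNA of SNHG12, gave 58.3, 57.6 and 31.2 FPKM in DMSO and was at the floor in all SNS-032 and NVP-2 libraries, with 8.07 FPKM in THAL-SNS-032 replicate 1 alone. It was the only fall with SNS-032 in which all 3 SNS-032 libraries were at the floor.

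SNORA4 and SNORA81 share EIF4A2 with SNORA63. SNORA4 gave 282, 402 and 264 FPKM in DMSO libraries, 11.3, 61.7 and 17.1 with SNS-032, 7.07 and the floor in the other 2 THAL-SNS-032 libraries, and 4.59, 4.15 and 3.94 with NVP-2. SNORA81 gave 66.5, 97.7 and 74.3 FPKM in DMSO libraries, 3.78, 10.1 and 8.56 with SNS-032, 2.27 and the floor with THAL-SNS-032, and 2.88, 2.61 and 1.28 with NVP-2. Both had 2 of 3 THAL-SNS-032 libraries at the floor while NVP-2 libraries all showed them. Their differences with SNS-032 were -3.69 (SE 0.66) and -3.32 (SE 0.40), against -1.55 (SE 0.30) for SNORA63.

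In the ribosomal protein and translation factor hosts, SNORA64 of RPS2 gave 144, 218 and 292 FPKM in DMSO libraries, 37.5, 11.8 and 38.2 with SNS-032 and 5.11, the floor and 4.44 with NVP-2. It was at the floor in all 3 THAL-SNS-032 libraries, unlike SNORA10 of the same host. SNORA41, within EEF1B2, a subunit of an elongation factor, gave 248, 164 and 68.3 FPKM in DMSO libraries, 6.86, 50.5 and 51.6 with SNS-032 and the floor in every THAL-SNS-032 and NVP-2 library. SNORA52, within RPLP2, a protein of the ribosomal stalk, gave 201, 160 and 230 FPKM in DMSO libraries, 62.4, 114 and 85.9 with SNS-032, 23.6, 9.91 and 18.6 with THAL-SNS-032 and the floor, 4.69 and 4.44 with NVP-2. Its fall with SNS-032 was small, at -1.19 (SE 0.51, adjusted p = 0.0368, limma), turned to 0.99 after centring, and was lost without DMSO replicate 1 or 3 (adjusted p = 0.0610 and 0.0819) or SNS-032 replicate 1 or 3 (0.152 and 0.0625). The call was also lost with a pseudocount of 0.1 (adjusted p = 0.203, limma) and without the filter on low values (0.126).

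Among the other members of TAF1D, SNORA25 gave 370, 339 and 209 FPKM in DMSO libraries, 27.0, 74.6 and 30.9 with SNS-032, 8.55, the floor and 9.98 with THAL-SNS-032 and the floor throughout with NVP-2. SNORA18 was uneven in DMSO, at 704, 205 and 211 FPKM, and gave 33.4, 12.6 and 51.1 with SNS-032, 16.8, the floor and 39.4 with THAL-SNS-032 and 5.52, 19.7 and the floor with NVP-2. SNORA13, in an intron of the non-coding EPB41L4A-AS1, gave 120, 91.6 and 65.2 FPKM in DMSO libraries, 6.67, the floor and 10.3 with SNS-032, and the floor throughout with THAL-SNS-032 and NVP-2. Each of these 3 passed as lower in all 3 comparisons with DMSO. Centring ended the calls of SNORA18 (adjusted p = 0.401, 0.0706 and 0.0606, limma) and that of SNORA25 with SNS-032 (-0.70, adjusted p = 0.395). The SNORA18 call with SNS-032 was also lost with a pseudocount of 0.1 (adjusted p = 0.0547) and without the filter on low values (0.0599).

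The rises were of another size. Of the 10 members higher with SNS-032, 8 had all DMSO libraries at the floor, only 4 had groups that did not overlap (SNORA76, SNORA14B, SNORA53 and SNORA23), and in 7 every value of both groups was under 26.6 FPKM. Of the 3 higher with THAL-SNS-032 only SNORA76 had groups that did not overlap, and of the 4 higher with NVP-2 these were SNORA76, SNORA12 and SNORA11B. Of all genes called higher, groups did not overlap for 74.9%, 90.4% and 80.4% in the same order of compounds (1.15%, 1.24% and 0.360% of all genes). At the common level the rises that passed were SNORA76 in all 3 comparisons and SNORA12 with NVP-2.

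SNORA76, named SNORA50C in GENCODE, lies within the non-coding host SNHG25 at chr17:64146339-64146471 on the plus strand. It was at the floor in DMSO replicates 1 and 3 and at 32.5 FPKM in replicate 2, against 39.6, 84.9 and 159 with SNS-032, 81.9, 51.0 and 58.2 with THAL-SNS-032 and 64.9, 48.5 and 58.4 with NVP-2. Every compound library lay above the highest DMSO library, the lowest of them at 39.6. The differences were 4.47, 4.09 and 3.96 (SE 0.91; adjusted p = 0.00024, 0.000531 and 0.000658, limma), and with values under 26.6 FPKM raised to it they were 1.48, 1.11 and 0.98.

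SNORA12, in an intron of CWF19L1 at chr10:100237156-100237302 on the minus strand, was at the floor in DMSO replicates 1 and 2 and at 21.0 FPKM in replicate 3. It gave 12.8, 15.9 and 12.8 FPKM with SNS-032 and 10.6, 6.70 and 18.3 with THAL-SNS-032, all below that DMSO library, and 67.6, 30.6 and 40.3 with NVP-2, all above it. The differences were 2.20, 1.90 and 3.80 (SE 0.79; adjusted p = 0.0154, 0.0321 and 0.000284, limma), while CWF19L1 itself fell, at -2.48, -2.29 and -3.26. The calls with SNS-032 and THAL-SNS-032 were lost without DMSO replicate 1 (adjusted p = 0.0752 and 0.146), DMSO replicate 2 (0.0748 and 0.146) or SNS-032 replicate 1 (0.0502 and 0.0615), and that with THAL-SNS-032 also without THAL-SNS-032 replicate 1 (0.0514) or 3 (0.0957). Both were also lost with a pseudocount of 5 (adjusted p = 0.0514 and 0.109, limma) and without the filter on low values (0.0745 and 0.122). Fitting only the 6 libraries compared ended the THAL-SNS-032 call as well (0.0772). At the common level both differences were 0, by construction, and the NVP-2 difference was 0.70.

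SNORA14B, in an intron of TOMM20, a receptor of mitochondrial protein import, was at the floor in DMSO and THAL-SNS-032, at 12.9, 12.2 and 9.80 FPKM with SNS-032 and at the floor, 4.71 and 4.73 with NVP-2. SNORA11B was at the floor in DMSO and THAL-SNS-032, at 8.91 FPKM in SNS-032 replicate 1 alone, and at 14, 12.7 and 6.44 with NVP-2. SNORA23 and SNORA53, both at the floor in DMSO, reached 1.59, 8.33 and 4.57 FPKM and 1.66, 4.10 and 10.1 with SNS-032. None of these levels reached 24.4 FPKM, the lowest value above the floor in DMSO replicates 1 and 2, and none of the 4 genes had a value over the common level, so they were not testable there.

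**Figure D4:**
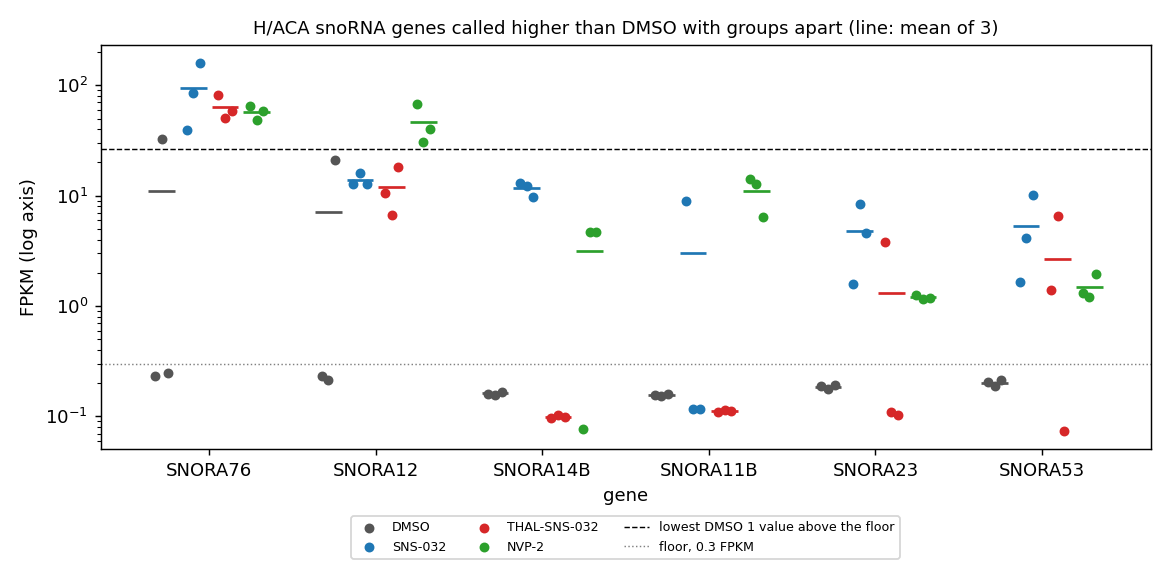
Points give FPKM per library (log axis) of the 6 H/ACA snoRNA genes called higher than DMSO with groups that do not overlap in at least 1 comparison, with a line at the mean of 3, a dotted line at the 0.3 FPKM floor and a dashed line at 26.6 FPKM, the lowest value above the floor in DMSO replicate 1. SNORA76 lies above the dashed line in all compound libraries, SNORA12 only with NVP-2, and the other 4 genes below it everywhere.

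The compounds were also compared with each other at the matched 250 nM and 6 h, in 3 pairs, each fitted over all genes. For THAL-SNS-032 against SNS-032, which differ by the linker and the cereblon ligand, 28 members were lower, 1 was higher and 54 did not pass, with a median difference of -1.51. Of all genes, 16.7% were lower, 13.4% were higher and the median was 0.14. Centring also gave 28 lower and 1 higher, while it moved all genes to 23.1% lower and 51.1% higher. Of the 28, 24 had groups that did not overlap (90.3% of all genes called lower), in 14 all THAL-SNS-032 libraries were at the floor, and 3 had both groups above the floor throughout. The common level left 5 lower members, SNORA9, SNORA67, SNORA20, SNORA52 and SNORA63, and 0 higher, against 1.22% and 1.09% of genes.

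The values of those 5 members are given in turn. SNORA9, within the non-coding host SNHG15, gave 297, 406 and 344 FPKM in DMSO libraries, 96.2, 234 and 187 with SNS-032 and 16.3, 20.2 and the floor with THAL-SNS-032 (-4.48, SE 0.83, adjusted p = 0.00101, limma). SNORA67, within the helicase gene EIF4A1, gave 231, 262 and 237 FPKM in DMSO libraries, 99.7, 142 and 128 with SNS-032 and 28.0, the floor and 16.5 with THAL-SNS-032 (-3.92, SE 0.83, adjusted p = 0.0027, limma). SNORA20, within the chaperonin gene TCP1, gave 248, 170 and 211 FPKM in DMSO libraries, 40.5, 136 and 113 with SNS-032 and the floor, 10.7 and the floor with THAL-SNS-032 (-5.21, SE 0.98, adjusted p = 0.00113, limma). In all 3 genes SNS-032 did not overlap with DMSO or with THAL-SNS-032, and their differences of SNS-032 from DMSO, -1.09, -0.99 and -1.27, did not pass. At the common level these differences were unchanged, since all DMSO and SNS-032 values of the 3 genes lay above 26.6 FPKM. They passed as lower there with a smaller SE (0.11 for SNORA67). The pooled spread no longer held the other groups' floor libraries, but values raised to 26.6 FPKM enter it as libraries without spread. That lowers the SE by construction, so these passes do not settle whether SNS-032 differed from DMSO in the 3 genes. SNORA9 also passed without THAL-SNS-032 replicate 3, its THAL-SNS-032 library at the floor (adjusted p = 0.0148, limma). SNORA52 and SNORA63, whose values are given above, differed by -2.31 (SE 0.51) and -1.14 (SE 0.30), and the SNORA63 call was lost without THAL-SNS-032 replicate 1 (-0.92, adjusted p = 0.0579). The SNORA52 call was lost with a pseudocount of 0.1 (adjusted p = 0.0529, limma).

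SNORA24 was the 1 member that THAL-SNS-032 libraries held at a higher level, by 2.19 (SE 0.56, adjusted p = 0.00913, limma). Its difference at the common level was 1.78 (adjusted p = 0.0523), and the call was also lost without the filter on low values (adjusted p = 0.0564, limma). SNORA70 was the 1 member for which the pair can be said to lie within 2-fold of each other, with a difference of -0.28 and a 95% interval from -0.81 to 0.26. For 24 members the interval reached past 2-fold in both directions, so for these the data do not tell whether the pair differ. SNORA31, within TPT1, is an example of a larger difference at lower levels: 34.6, 106 and 74.8 FPKM in DMSO libraries, 15.1, 55.6 and 101 with SNS-032 and the floor throughout with THAL-SNS-032 (-5.40, SE 0.76), which became -0.97 at the common level and was not called. SNORA60, within SNHG11, gave 27.4, 26.8 and 29.2 FPKM in DMSO libraries, 6.06, 22.6 and 9.29 with SNS-032 and the floor with both other compounds, and its fall with SNS-032 (-1.27, SE 0.29) turned to 0.91 after centring. The DMSO values of SNORA60 lay near the lowest above the floor in those libraries among members of 120 to 140 bases (26.6, 24.4 and 27.1). Their small spread may therefore not reflect counting error.

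For SNS-032 against NVP-2, 34 members were higher with SNS-032, 1 was lower and 48 did not pass, with a median of 1.45. Of all genes, 52.6% were higher, 0.782% were lower and the median was 0.48. Centring gave 21 higher and 2 lower (24.7% and 59.0% of all genes), the common level 7 and 0 (8.73% and 0.0160% of genes), and without DMSO replicate 3 there were 2 lower. For THAL-SNS-032 against NVP-2, 7 members were higher, 8 were lower and 68 did not pass, with a median of 0.02, whereas 70.0% of all genes were higher, 0.993% were lower and the median was 0.64. Centring gave 3 higher and 12 lower (29.3% and 38.0% of all genes), the common level 2 and 1 (23.1% and 0.112% of genes), and without THAL-SNS-032 replicate 2 there were 11 higher. SNORA24 and SNORA70 were higher with THAL-SNS-032 than with NVP-2 also at the common level, by 2.66 (SE 0.56) and 1.85 (SE 0.25) on the deposited scale, and SNORA12 was lower (-1.90, SE 0.79, adjusted p = 0.0442, limma). The SNORA12 call was lost without replicates 1 or 3 of NVP-2, replicates 1 or 2 of THAL-SNS-032 or replicate 1 of SNS-032 (adjusted p = 0.128, 0.0678, 0.0774, 0.133 and 0.0713). A pseudocount of 0.1 (adjusted p = 0.0895, limma) and no filter on low values (0.113) also ended it.

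The annotation places 104 of the 105 members within a host gene on the same strand, 79 hosts in all. GENCODE 29 has 45 members that overlap an exon of some host transcript and 59 that lie wholly in introns. Of the 45, 43 passed the mean of 1 FPKM, 28 were above the floor in all DMSO libraries, and the median of their DMSO means was 65.7 FPKM. Of the 59, 40 passed, 9 were above the floor in all DMSO libraries, and the median was 0.171 FPKM. The libraries were selected for poly(A), and whether fragments assigned to a member came from the mature snoRNA or from a longer host transcript cannot be told apart in these values.

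By class of host, 27 members lie in ribosomal protein or translation factor genes, 16 in SNHG genes and 61 in other genes. Of these, 16, 9 and 12 were above the floor in all DMSO libraries, and the median DMSO means were 58.3, 44.3 and 7.16 FPKM. The members called lower among the 24, 15 and 44 tested were 12, 7 and 9 with SNS-032, 17, 9 and 15 with THAL-SNS-032 and 18, 9 and 15 with NVP-2. Of all genes, 94.6%, 94.8% and 97.1% were lower in the same order of compounds, and every class lay below these shares. Falls were thus counted in all 3 classes, with a larger share in the classes with higher DMSO levels. No test between classes was made, since members at the floor in DMSO had no room to fall.

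Several hosts carry more than 1 member: TAF1D holds 6, SNHG17 4, and EIF4A2, SNHG12, KANSL2 and TBRG4 3 each. Members of a host share its transcription and are not independent. Their levels differed all the same: in TAF1D, 5 of 6 were above the floor in all DMSO libraries, with means from 35.5 (SNORA1) to 667 (SNORA8) FPKM, and in KANSL2 0 of 3 were.

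Hosts were lower as well. Of 57 tested hosts of tested members, 54 were lower with SNS-032, 54 also with THAL-SNS-032, 57 with NVP-2 and 0 were higher, with medians of -1.75, -2.0 and -2.76, close to those of all genes. RPL10 gave 1214, 1451 and 1460 FPKM in DMSO libraries, 513, 808 and 864 with SNS-032, 813, 936 and 867 with THAL-SNS-032 and 421, 502 and 406 with NVP-2. Its differences were -0.95, -0.65 and -1.63 (SE 0.20), and after centring 1.22, 1.60 and 1.33, while SNORA70 within it stayed lower than in DMSO under centring. RPS2 differed by -0.98, -0.72 and -1.5 and SNHG8 by -1.41, -1.23 and -1.99, and both turned positive after centring in all 3 comparisons. RPS12 differed by -0.64 and -1.19 with SNS-032 and NVP-2, which turned positive after centring, and by -0.42 with THAL-SNS-032 (adjusted p = 0.0516, limma), which did not pass. TAF1D fell with all 3 compounds, at -2.30, -2.97 and -4.03, as did EIF4A2 at -2.37, -3.36 and -3.82 and SNHG12 at -4.22, -4.50 and -4.77.

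A member was also set against its host within each library, as log2(FPKM + 1) of the member minus that of the host. For SNORA70 and RPL10 this was -0.05 ± 0.26 in DMSO (SD, n = 3), -2.75 ± 0.12 for SNS-032, -3.32 ± 0.13 for THAL-SNS-032 and -4.18 ± 0.39 for NVP-2. For SNORA10 and RPS2 it was -3.05 ± 0.11 in DMSO, -5.50 ± 0.62, -6.06 ± 0.59 and -6.10 ± 0.87 with the compounds in the same order. This value lay below every DMSO library with all 3 compounds for SNORA70, SNORA10, SNORA33 and SNORA8 (exact two-sided permutation p = 0.1 for each, the smallest that 3 against 3 allows). It went the other way for SNORA63 and EIF4A2, with -1.51 ± 0.38 in DMSO, -0.69 ± 0.33 with SNS-032 and -0.84 ± 0.33 with THAL-SNS-032, both above DMSO (exact p = 0.1), and -1.48 ± 0.65 with NVP-2, which overlapped. SNORA40 and TAF1D overlapped with DMSO in all 3 comparisons, at 2.31 ± 0.31, 2.31 ± 0.57, 2.13 ± 0.76 and 2.10 ± 0.61. SNORA24 and SNHG8 had -2.32 ± 0.12 in DMSO and -2.40 ± 0.27 with THAL-SNS-032, which overlapped (exact p = 0.7), but -4.42 ± 1.79 with SNS-032 and -4.30 ± 0.50 with NVP-2, both below DMSO. SNORA8 and SNORA40, with the same host, thus differed in this value.

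**Figure D5:**
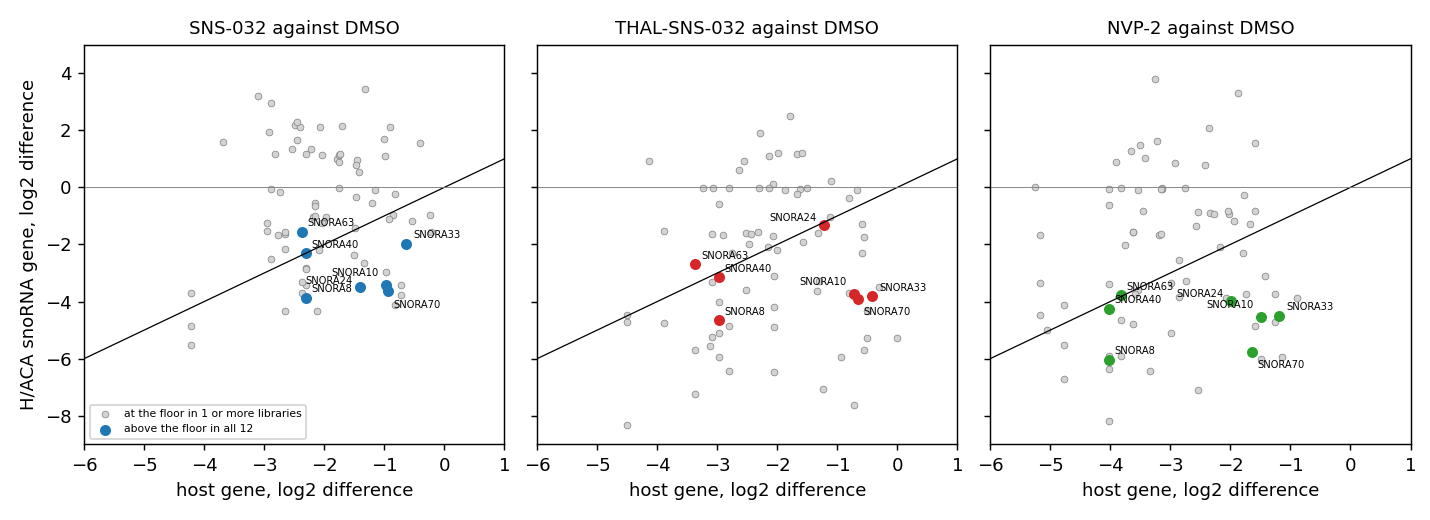
Each point is an H/ACA snoRNA gene with a tested host (77 points per panel), with the host's log2 difference from DMSO on the x axis and its own on the y axis, for the 3 compounds; large named points are the members above the floor in all 12 libraries, and the diagonal marks equal differences. SNORA70 lies at -3.64, -3.92 and -5.76 where RPL10 lies at -0.95, -0.65 and -1.63, while SNORA40 and SNORA63 lie near or above the diagonal.

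Over all 77 members with a tested host, the member's difference was below the host's in 27 for SNS-032, 41 for THAL-SNS-032 and 32 for NVP-2. Among the 34 of them that were above the floor in all DMSO libraries, these were 25, 31 and 27, a description of members chosen on their DMSO values. Across these 77 pairs the correlation of the differences was weak, with Pearson's r of 0.062, 0.072 and 0.070. The pairs share libraries, 57 hosts serve all 77, and most members have libraries at the floor, which sets a limit on how far they can fall.

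The proteins of the H/ACA particle were lower as messenger RNAs in every comparison with DMSO, 6 of 6 with each compound, where 94.6%, 94.8% and 97.1% of all genes were. Their medians were -2.70, -3.02 and -4.14. DKC1, the pseudouridine synthase dyskerin, gave 217, 243 and 249 FPKM in DMSO libraries, 22.2, 36.2 and 36.3 with SNS-032, 31.7, 35.6 and 31.9 with THAL-SNS-032 and 12.8, 14.3 and 13.8 with NVP-2 (-2.90, -2.80 and -4.02, SE 0.19). GAR1, a core protein of the particle, differed by -3.0, -3.53 and -4.60. The assembly factors NAF1 and SHQ1 differed by -2.51, -3.24 and -4.26 and by -3.12, -3.26 and -4.50. The core proteins NHP2 and NOP10 fell by less, at -1.34, -1.05 and -1.94 and at -2.32, -2.12 and -3.03, and centring turned NHP2 positive in all 3 comparisons (0.83, 1.20 and 1.02) and NOP10 with THAL-SNS-032 (0.13). DKC1 is itself the host of SNORA36A and SNORA56. SNORA56 gave 35.4, 147 and 116 FPKM in DMSO libraries, 15.5, 14.6 and 12 with SNS-032, 22.4 in 1 THAL-SNS-032 library and the floor in the others, and the floor with NVP-2. SNORA36A was at the floor except for 23.4 FPKM in SNS-032 replicates 1 and 3.

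TERC, the telomerase RNA, ends in an H/ACA domain and binds the same proteins, but has its own promoter. It was at 0.222, 0.204 and 0.229 FPKM in DMSO, under the floor of 0.3, and at 1.44, 2.64 and 3.02 with SNS-032, 2.37, 2.42 and 1.99 with THAL-SNS-032 and 3.93, 4.09 and 2.96 with NVP-2. It was called higher in all 3 comparisons (1.43, 1.42 and 1.93, SE 0.17), as were 0.220% of all genes, from a level in DMSO at which it was not separable from the floor. All its compound values also lay under 5.46 FPKM, the lowest value above the floor that a member had in any DMSO library.

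Some members have near copies between which reads could be split. SNORA11D and SNORA11E have identical sequences and identical values, so they are 1 measurement listed under 2 names. SNORA7A and SNORA7B share 98.6% of their bases and SNORA36A and SNORA36C 97.0%, and their values are uncertain for that reason. SNORA70, the most abundant member, has 90.4% identity with SNORA70B and SNORA70C. SNORA70C to SNORA70G all carry the single value shared with other names and so hold no measurement of their own.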

How the data were processed

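RNA of 12 MOLT4 libraries was measured in 4 groups of 3. Per the labels' protocols, cells were counted, ERCC RNA was added at lysis, and poly(A) RNA was selected for stranded libraries. Per the submitters' processing notes, HISAT, Cufflinks 2.0.0 and hg19 were used; the annotation and the part of the spike-ins in the scaling are not given in the sources used here. The authors deposited FPKM per gene, with no counts. Of 23713 entries, 92 ERCC entries and 4 rows of 2 repeated symbols were removed. Genes with a mean of 1 FPKM were fitted on log2(FPKM + 1) with limma 3.58.1 (R 4.3.3, trend, 4 groups, 8 residual degrees of freedom), Benjamini-Hochberg adjusted over 11379 genes; the fit was tested on simulated data. The members and lists were chosen with earlier results of these data known. Named are the largest non-overlapping rises and falls (up to 10 per comparison), the 10 highest means, members beside the threshold, near copies, hosts, particle proteins and TERC, from which the printed ones were picked; SNORA36A was named outside that rule as a second snoRNA of DKC1. The floor of 0.3 FPKM was set after seeing the values. Members were matched to GENCODE 29 (GRCh38) by symbol (94) or by RefSeq synonym (11) for sequence, position and host, with Python 3.11.15, pandas 2.3.3 and Biopython 1.88; SNORA72's sequence is not shown. Figures used matplotlib 3.10.9. Alternatives changed the pseudocount, filter, scaling, trend, libraries fitted and replicates, plus a replicate block.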

Additional observations from a re-analysis of the deposited data

How the results depend on the processing

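Counts of members higher and lower were recomputed with 1 choice changed at a time, and counts not named here stayed within 1.5 times; the cause of each shift was not tested unless stated. A replicate block gave 12 higher and 29 lower for SNS-032 against DMSO, 3 and 42 for THAL-SNS-032, 4 and 44 for NVP-2, 1 and 34 for THAL-SNS-032 against SNS-032, 9 and 10 for THAL-SNS-032 against NVP-2 and 37 and 1 for SNS-032 against NVP-2. Over all 11379 genes the block gave, in the same order, 186 higher and 10787 lower, 156 and 10814, and 54 and 11058. Between compounds it gave 2307 and 2133, 8322 and 130, and 6693 and 123. Whether the replicate numbers pair libraries was not settled. Only 1 of 18 same-numbered pairs had a correlation of deviations over 0.1 (range -0.15 to 0.17), while the block called more genes in most counts. Without the filter on low values, rises went from 10 to 5 with SNS-032 and from 3 to 1 with THAL-SNS-032. Of the 23617 genes then fitted, 478 and 693 were higher. That setting also gave 0 higher and 16 lower for THAL-SNS-032 against SNS-032, 4 lower for THAL-SNS-032 against NVP-2, and 20 higher and 2 lower for SNS-032 against NVP-2. The counts over all genes were 1530 higher and 1780 lower, 98 lower, and 5905 higher and 77 lower. A mean of 5 FPKM gave 4 rises with SNS-032, 2 with NVP-2 and 0 lower for SNS-032 against NVP-2. Of the 8124 genes of that setting, 61, 21 and 59 were so called. Centring on library medians gave 26 higher and 8 lower with SNS-032, 17 and 27 with THAL-SNS-032, 21 higher and 19 lower with NVP-2, 3 higher for THAL-SNS-032 against NVP-2, and 21 higher and 2 lower for SNS-032 against NVP-2. Fitting only the 6 libraries compared gave 30 higher and 47 lower with SNS-032, 7 higher with NVP-2, 4 higher and 68 lower for THAL-SNS-032 against SNS-032, and 61 higher and 4 lower for SNS-032 against NVP-2. Of all genes, these fits called 260 higher and 11229 lower of 11847, 53 higher of 11653, 490 and 1492 of 10227, and 4311 and 76 of 9726. In the first, SNORA11B passed as higher (0.999, adjusted p = 3.82e-09, limma), though it was above the floor in SNS-032 replicate 1 alone. A call in these fits thus need not reflect how far a gene's own libraries lay apart. The common level gave 1, 1 and 2 rises against DMSO, 0 higher and 5 lower for THAL-SNS-032 against SNS-032, 2 higher and 1 lower for THAL-SNS-032 against NVP-2, and 7 higher and 0 lower for SNS-032 against NVP-2. It tests 66 members. The shares of all genes for centring and for the common level are given with each comparison above. Equal ERCC medians gave 5 rises with THAL-SNS-032, a pseudocount of 0.1 gave 7 rises with NVP-2, and a pseudocount of 5 gave 5 lower for THAL-SNS-032 against NVP-2 and 2 lower for SNS-032 against NVP-2. Of all genes, 143 of 11421, 57 of 11379, and 73 and 65 of 11379 were so called. Equal ERCC medians moved the median of all genes from -1.92 to -1.95 with SNS-032. It went from -1.90 to -1.96 with THAL-SNS-032 and from -2.54 to -2.62 with NVP-2. Leaving out 1 library gave 9 to 14 higher and 25 to 34 lower with SNS-032, 1 to 4 and 39 to 47 with THAL-SNS-032, 4 to 5 and 40 to 46 with NVP-2, 1 to 1 and 23 to 31 for THAL-SNS-032 against SNS-032, 6 to 11 and 6 to 12 for THAL-SNS-032 against NVP-2 and 28 to 37 and 1 to 2 for SNS-032 against NVP-2. Of 11120 to 11456 genes tested, 141 to 246 were then higher and 10450 to 10865 lower with SNS-032. With THAL-SNS-032 these were 134 to 159 and 10455 to 10919, and with NVP-2 48 to 56 and 10795 to 11119. They were 605 to 2761 and 1482 to 3426 for THAL-SNS-032 against SNS-032. Against NVP-2 they were 6550 to 9168 and 73 to 233 for THAL-SNS-032, and 4530 to 9300 and 54 to 129 for SNS-032.

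For 167 single differences of named genes, 3638 alternative values were computed: 3473 kept direction and side of the threshold, 83 no longer passed, 57 newly passed and 25 reversed. All 25 reversals came from centring on library medians, which takes out the shift of all genes. They were SNORA24 with THAL-SNS-032 (0.95), SNORA33 (0.20), SNORA63 (0.62), SNORA52 (0.99) and SNORA60 (0.91) with SNS-032, and, from values at the floor in both groups, SNORA14B (2.18) and SNORA11B (2.20) with THAL-SNS-032. Among hosts and proteins they were, in the order SNS-032, THAL-SNS-032, NVP-2, RPL10 (1.22, 1.60 and 1.33), RPS2 (1.19, 1.54 and 1.46), RPS12 (1.53, 1.83 and 1.77), SNHG8 (0.76, 1.03 and 0.97) and NHP2 (0.83, 1.20 and 1.02), then TOMM20 with SNS-032 and THAL-SNS-032 (0.84 and 0.38) and NOP10 with THAL-SNS-032 (0.13). The unknown depth limits every value near the floor, and the median SE of a member's difference was 0.87, with a median 95% interval of 1.86 to either side.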

Other observations

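Of the other small nucleolar and Cajal body RNAs, 256 C/D box genes (SNORD, guides of ribose methylation) were listed and 67 passed the mean of 1 FPKM. Of these, 6 were higher and 9 lower than DMSO with SNS-032, 4 and 14 with THAL-SNS-032 and 7 and 15 with NVP-2, with medians of -0.03, -0.66 and -0.30 (limma, adjusted p under 0.05). Of all genes, 1.54% were higher and 94.6% lower with SNS-032, 1.37% and 94.8% with THAL-SNS-032 and 0.448% and 97.1% with NVP-2. Of 24 small Cajal body RNAs (SCARNA, guides of modification in spliceosomal RNAs), 16 passed, with 4 higher and 2 lower, 4 and 4, and 7 and 3 in the same order. Differences between these classes and the H/ACA members were not tested.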
